A study of Mus musculus with 24 samples.

Results

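The genes described here are the heat shock protein and DnaJ (HSP40) chaperone genes of the mouse nucleus accumbens (NAc), a ventral striatal region of the reward system. Members were all protein-coding genes whose symbol begins with Hsp followed by a letter from a to h or a digit, or with Dnaja, Dnajb or Dnajc followed by a digit, and whose mean count over the 24 libraries was at least 10. Of 75 protein-coding genes with such a symbol, 67 met the count minimum, out of 52636 genes counted. They comprised 11 HSP70, 3 HSP110, 3 HSP90, 2 mitochondrial chaperonin, 4 DNAJA, 11 DNAJB and 25 DNAJC genes. A further 5, Hspb11 among them, were grouped as small heat shock genes by symbol alone (Hspb and a number). Another 3 genes were set apart as carrying the symbol without being chaperones of these families: Hspg2, which encodes the matrix proteoglycan perlecan, Hspbp1, whose protein releases nucleotide from HSP70, and Hspbap1. The members nearest to the minimum were Hspa1l with a mean of 10.3 counts and Dnajb13 with 12.7, and the genes just below it were Hspb2 with 7.38 and Hspb9 with 7.17.

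RNA-seq was done on mice labelled C57BL/6 (C57BL/6J in the study's methods) at P50, with 1 rRNA-depleted library from the bilateral NAc of each animal and 6 animals in each of 4 groups. Con females and Con males came from litters without the stress, and MSUS females and MSUS males from litters exposed to early-life stress by daily maternal separation from P1 to P14, combined with unpredictable maternal stress. The separation is described as 2 h per day in the deposited design text. The methods of the study give a longer time. Both female groups were balanced for estrous stage by the study's design. The tissue was punched from frozen brain and holds all cell types, so that fewer cells of a type and less RNA per cell cannot be told apart.

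Chaperones of the HSP70 family bind exposed hydrophobic stretches of unfolded proteins in a cycle driven by ATP. J proteins of the DNAJ families deliver substrates and start ATP hydrolysis, nucleotide exchange factors such as HSP110 and Bag1 reopen the cycle, and HSP90 takes over a set of partly folded clients such as kinases and steroid receptors. Heat shock factors induce some of these genes through heat shock elements, and the unfolded protein response of the endoplasmic reticulum (ER) induces others through ER stress elements, while most DNAJC genes serve fixed tasks such as clathrin uncoating at the synapse or protein import into mitochondria.

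The sense-strand counts summed to between 39923666 and 70575745 per library, so counting error was small for all but the lowest members. The sex labels matched the Y-linked gene Ddx3y, which had a count of 0 in the 12 libraries labelled female and was detected in all 12 labelled male. All 10 markers of striatal projection neurons were detected in every group, but so were all 10 markers of cortical excitatory neurons, whose summed level was highest in Con female 3 (109165 normalized counts), MSUS female 1 (53830.2), Con male 5 (79253) and MSUS male 6 (114954). The unassigned share, that of uniquely mapped read pairs outside every annotated gene on the sense strand, lay between 31.0% and 34.8% in females of the Con group and 36.3% and 43.9% under MSUS, and for males between 34.7% and 40.6% in the Con group and 32.2% and 44.7% under MSUS. The female groups thus did not overlap in this share, and it could not be told apart from the group in the female comparison.

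Promoter sequences show which members carry letters of the elements named above. RefSeq promoter windows on GRCm38.p6, from 250 bases before to 50 after a gene's start, were found for 56 of the 67 members. The heat shock element was searched as GAA and TTC in either order with 2 bases of any kind between them, which reads alike on both strands and whose copies can overlap, and was in the windows of 15 of the 56 members (26.8%) and of 17% of all genes with a window. Its longer form, with 3 such units in alternation at the same spacing on either strand and so always holding the shorter form, was in 4 members (7.14%), Hspd1, Hspe1, Dnajb6 and Hsph1, and in 0.662% of all genes. The ER stress element, CCAAT and CCACG with 9 bases of any kind between them on either strand, was in 3 members (5.36%), Hspa5, Hsp90b1 and Dnajc3, and in 0.137% of all genes. A match describes the letters only, and a window without one says nothing of the factor.

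The stretches below were chosen because they belong to members whose values are described next, and the capitals mark the matching letters. Hspe1 and Hspd1, the neighbouring genes of mitochondrial HSP10 and HSP60, are transcribed away from each other and share a single run of overlapping elements at chr1:55088054-55088081, shown on the strand of Hspe1, which lies in a non-coding part of an exon of Hspd1.
Hspe1 and Hspd1: gtccgTTCTAGAACCTTCCGGAAggccc
The stress-inducible HSP70 genes Hspa1a (chr17:34972248-34972265, minus strand) and Hspa1b (chr17:34959330-34959347, minus strand) have the same letters upstream of both starts, outside any annotated gene. Their windows share 296 of 300 bases.
Hspa1a and Hspa1b: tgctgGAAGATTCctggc
Dnajb4, a cytosolic partner of HSP70, has an element close to a start inside its own locus, at chr3:152193847-152193864 on the minus strand in an intron.
Dnajb4: cgctgTTCTAGAAagtac
Dnajb6, which holds back aggregation of polyglutamine proteins, has a run of 3 units at chr5:29735847-29735869, plus strand, where a coding exon of Gm5129 is annotated.
Dnajb6: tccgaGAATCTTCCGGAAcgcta
Hspa5, the ER HSP70 known as BiP, has an ER stress element at chr2:34772020-34772048, plus strand, in a non-coding part of one of its exons, and Dnajc3, an ER J protein, has one at chr14:118937822-118937850, plus strand, outside any annotated gene.
Hspa5: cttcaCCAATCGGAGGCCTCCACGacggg
Dnajc3: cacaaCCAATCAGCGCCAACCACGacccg

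The members differed widely in level. Per kb of merged exons, the mean over the 24 libraries was highest for Hsp90ab1, the constitutive cytosolic HSP90, at 21131 normalized counts, followed by Hspa8, the constitutive HSP70, at 14158, and Hsp90aa1, the inducible HSP90, at 8469. Several of these genes have processed copies in the genome, and only uniquely mapped pairs were counted, so their levels may be understated. The ER chaperones Hsp90b1 and Hspa5 had 3719.7 and 3386 normalized counts per kb, and the chaperonin Hspd1 had 2709.8. Among J proteins the highest were Dnajc5, the cysteine string protein of synaptic vesicles, at 2524 normalized counts per kb, Dnajc6, the auxilin that with Hspa8 strips clathrin from vesicles, at 2311, and cytosolic Dnaja2 at 2307. The inducible Hspa1a and Hspa1b stood at 44.7 and 53.7 normalized counts per kb. The 67 genes together took 0.798% ± 0.0423 (SD, n = 6) of the sense counts in females of the Con group and 0.770% ± 0.0232 under MSUS, and for males 0.771% ± 0.0369 in the Con group and 0.798% ± 0.0412 under MSUS, with overlapping ranges.

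**Figure D1:**
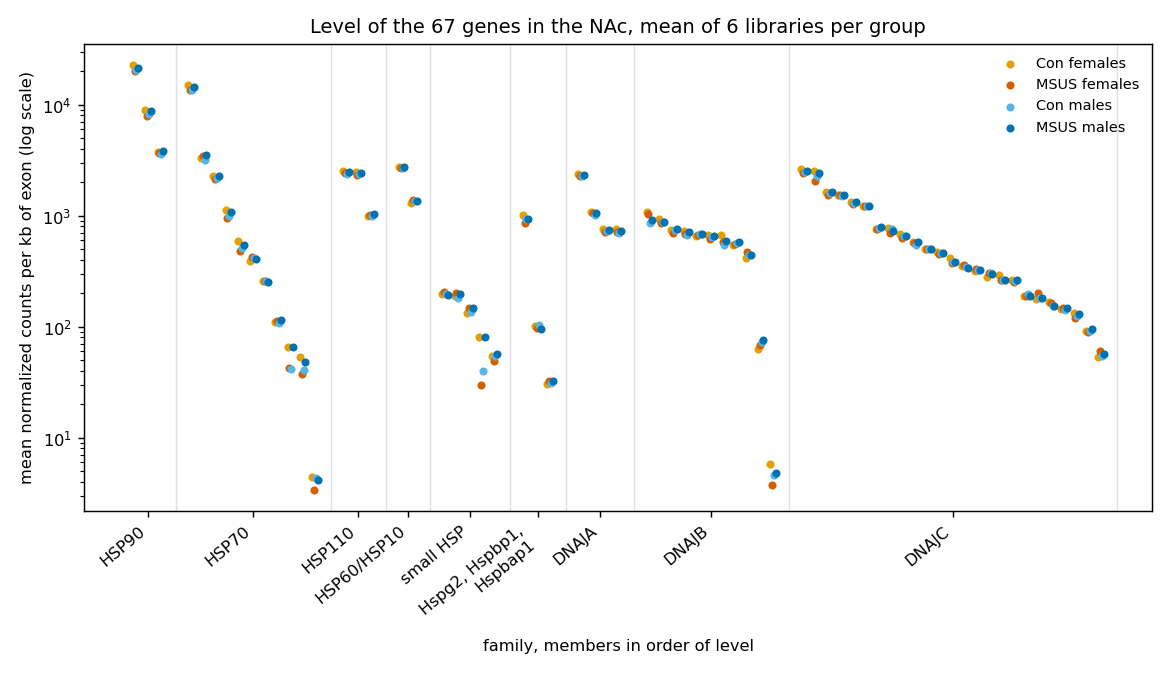
Mean normalized counts per kb of merged exons (log scale) of the 67 genes by family, with 1 dot per group and gene (means of 6 libraries). Hsp90ab1 and Hspa8 stand highest, and the 4 group means of nearly every gene coincide on this scale, with Hspb3 and Hspa1b spread most.

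In MSUS females, the cytosolic HSP90 gene Hsp90ab1, the HSP70 genes Hspa2 and Hspa9 and the J protein genes Dnajb1 and Dnajc6 fell against Con females, while Dnajb4 and Dnajc1 rose. All of these changes were small, with log2 fold changes between -0.30 and 0.18. Of the 65 members tested, 16 were called (24.6%) at a Benjamini-Hochberg adjusted p under 0.10 over all genes, from the quasi-likelihood test of edgeR, against 25.1% of all 20571 genes tested, so the share of members called was near the background. In direction, 14 of the 16 called members were lower in MSUS females (87.5%), against 47.7% of the called genes. Over the members tested, 2 were higher (background 13.1%) and 14 were lower (background 11.9%), and the median log2 fold change was -0.05 over the members tested and -0.00 over all genes tested. The 6 values of MSUS females lay entirely below those of Con females for 6 members (9.23%, background 3.41%) and entirely above for 0 (background 3.81%). At an unadjusted p under 0.05 there were 24 members (36.9%), against 32.7% of all genes.

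Hsp90ab1, the called member of the highest level per kb, ranged from 63378 to 73409.7 normalized counts among Con females (median 67398) and from 57156 to 63725 among MSUS females (median 59808). Each of the 6 MSUS values was under the Con median and the ranges met only at their edges, with a log2 fold change of -0.17 ± 0.04 (SE) and an adjusted p of 0.0228 from the quasi-likelihood test of edgeR. Its inducible paralog Hsp90aa1 had a log2 fold change of -0.19 ± 0.08 that did not pass (adjusted p 0.106, edgeR), and the ER form Hsp90b1 one of -0.00 ± 0.05. Hspa2, an HSP70 best known from the testis that is also made in brain, ranged from 1377 to 1856 normalized counts among Con females (median 1451) and from 1191 to 1393 among MSUS females (median 1277). The groups met at their edges, and the fall was -0.28 ± 0.08 on the log2 scale (adjusted p 0.0348, edgeR). Hspa9, the mitochondrial HSP70 mortalin, ranged from 9620.1 to 10142 normalized counts among Con females (median 9719.7) and from 8918 to 9449 among MSUS females (median 9119.8), so that the groups were apart, with a log2 fold change of -0.10 ± 0.03 (adjusted p 0.0372, edgeR). Of the 10 HSP70 genes tested, 2 were called, both lower.

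The most abundant HSP70, Hspa8, ranged from 58422 to 78632 normalized counts among Con females (median 61097) and from 53029.6 to 61017 among MSUS females (median 58153), and its log2 fold change of -0.17 ± 0.07 did not pass (adjusted p 0.131, edgeR). The brain-enriched HSP70 relative Hspa12a (-0.24 ± 0.11) and the ER chaperone Hspa5 (0.06 ± 0.11) did not pass either. None of the 3 HSP110 genes was called, with log2 fold changes of -0.08 ± 0.05 for Hspa4, 0.03 ± 0.05 for Hspa4l and -0.06 ± 0.05 for Hsph1. The chaperonin genes Hspd1 (-0.02 ± 0.03) and Hspe1 (0.09 ± 0.06), the small heat shock gene Hspb1 (0.10 ± 0.10) and the perlecan gene Hspg2 (-0.06 ± 0.05) were not called. Hspbp1 ranged from 1798 to 2220.2 normalized counts among Con females (median 1827) and from 1529 to 1694 among MSUS females (median 1660.2), with no overlap and a log2 fold change of -0.21 ± 0.05 (adjusted p 0.0192, edgeR).

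**Figure D2:**
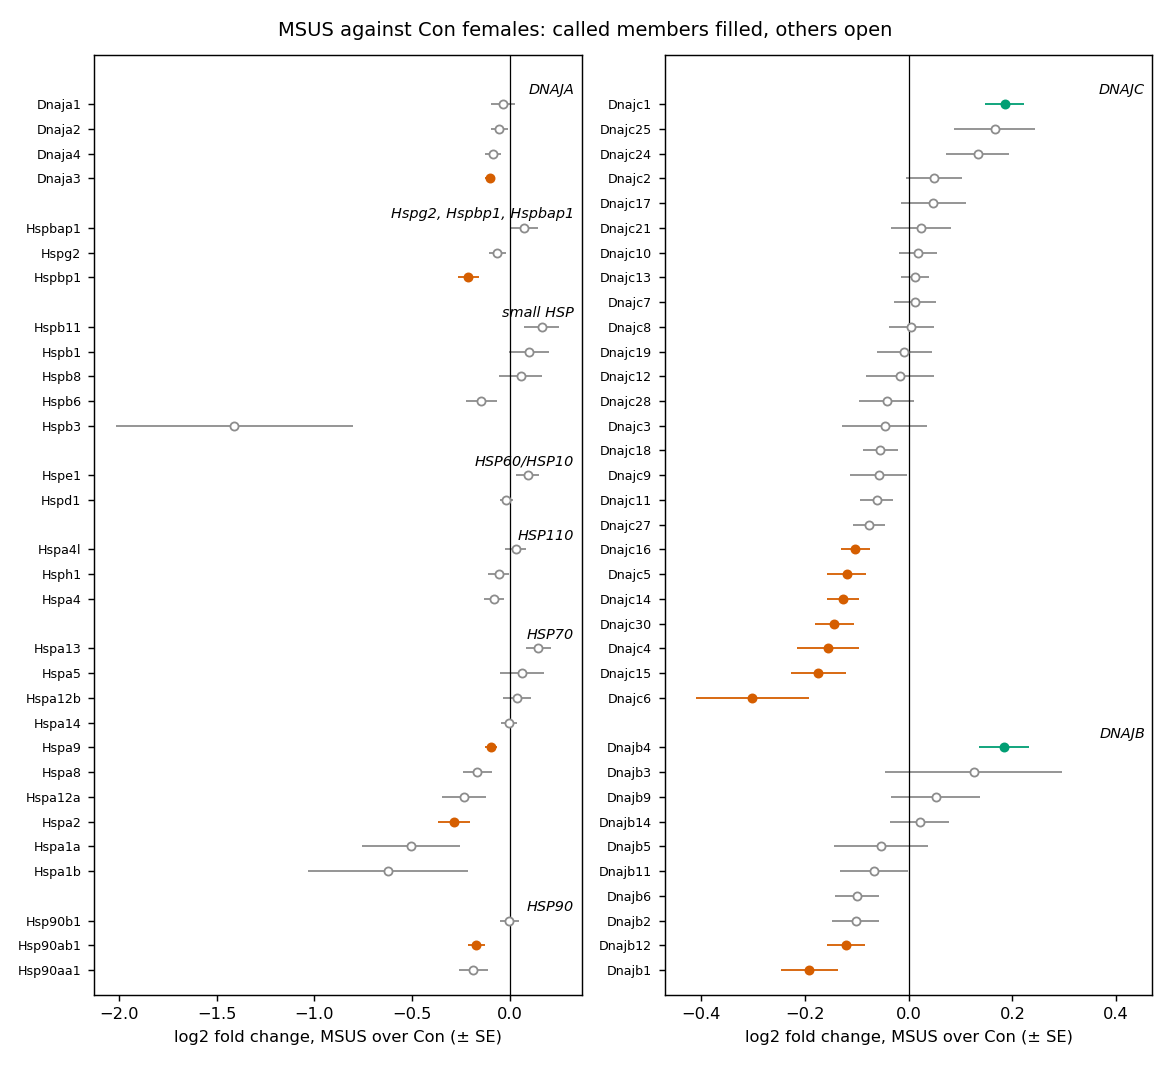
Log2 fold change, MSUS over Con females, with its SE (bars), for the 65 members tested, by family (6 libraries per group). Filled dots passed an adjusted p under 0.10 by edgeR, orange where lower and green where higher in MSUS females, and the axes of the panels differ. Of the called members, 14 lie left of 0 and 2 right of it.

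Among the J proteins of the cytosol, Dnajb1, the main heat-inducible HSP40, ranged from 1883 to 2325 normalized counts among Con females (median 2199.8) and from 1767 to 2015 among MSUS females (median 1852). The groups overlapped, although all 6 MSUS females were below the Con median, and the log2 fold change was -0.19 ± 0.05 (adjusted p 0.0337, edgeR). Its close relative Dnajb4 went the other way, with 3224 to 3953 normalized counts among Con females (median 3761) and 3917 to 4301 among MSUS females (median 4139.9). All 6 MSUS females exceeded the Con median, and the rise was 0.18 ± 0.05 on the log2 scale (adjusted p 0.0227, edgeR). The cytosolic Dnaja1 (-0.04 ± 0.06) and Dnaja2 (-0.05 ± 0.04), the neuronal Dnajb2 (-0.10 ± 0.05), Dnajb5 (-0.05 ± 0.09) and Dnajb6 (-0.10 ± 0.04) did not pass. Of the 13 genes on a list of heat-inducible chaperones, 1 was called higher (Dnajb4) and 2 lower (Dnajb1 and Hsp90ab1). The share called lower was 15.4%, beside 11.9% of all genes, and 13.1% of all genes were called higher. The median log2 fold change of the 13 was -0.06.

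At the synapse, Dnajc6 had the largest fall among the called members. It ranged from 12314 to 19137 normalized counts among Con females (median 14331) and from 10697 to 14553 among MSUS females (median 11778). The ranges overlapped, with 5 of the 6 MSUS females below the Con median, and the log2 fold change was -0.30 ± 0.11 (adjusted p 0.0785, edgeR), a call kept in 4 of the 12 fits that left out 1 library. Dnajc5 ranged from 17584 to 19843 normalized counts among Con females (median 18157) and from 16023 to 17519.6 among MSUS females (median 16937). These ranges did not overlap, and the log2 fold change was -0.12 ± 0.04 (adjusted p 0.0456, edgeR). Of the 3 genes on the list of synaptic vesicle chaperones, the 2 J proteins were called lower and Hspa8 was not called, where 11.9% of all genes were called lower.

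Of the 8 mitochondrial members, 4 were called, all lower, where 25.1% of all genes were called and 11.9% were called lower. Besides Hspa9 these were Dnajc15, a J protein of the inner membrane's import machinery, with a log2 fold change of -0.17 ± 0.05 (adjusted p 0.0412, edgeR), and Dnaja3 (-0.10 ± 0.03) and Dnajc30 (-0.14 ± 0.04), both named after their values were seen. Dnajc15 ranged from 789 to 975 normalized counts among Con females (median 865) and from 716 to 810.4 among MSUS females (median 784), with some overlap. Dnaja3 and Dnajc30 did not overlap between the groups. The matrix chaperonin genes Hspd1 and Hspe1, on the same list, were not among the called ones.

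The 9 listed members of the ER lumen had 1 call, where 25.1% of all genes were called. This was a rise of Dnajc1, a membrane J protein whose J domain faces the lumen. It ranged from 1962 to 2187 normalized counts among Con females (median 2029) and from 2172 to 2385 among MSUS females (median 2371). Only the lowest MSUS female reached into the Con range. The log2 fold change was 0.18 ± 0.04 (adjusted p 0.00805, edgeR), the smallest adjusted p of any member. Over the 24 libraries the level of Dnajc1 also rose with the unassigned share (r = 0.768), in which the female groups did not overlap. The lumenal J proteins Dnajb9 (0.05 ± 0.09), Dnajb11 (-0.07 ± 0.07), Dnajc3 (-0.05 ± 0.08) and Dnajc10 (0.02 ± 0.04), partners of Hspa5, did not pass. The other called members, named after their values were seen, were Dnajc14, which is known to bind the dopamine D1 receptor and to assist its export from the ER (-0.13 ± 0.03, adjusted p 0.0182), Dnajb12 of the ER membrane (-0.12 ± 0.04, adjusted p 0.0391), Dnajc16 (-0.10 ± 0.03, adjusted p 0.0282) and Dnajc4 (-0.16 ± 0.06, adjusted p 0.0909), all by edgeR. The call of Dnajc4 was kept in 3 of the 12 fits that left out 1 library, with adjusted p up to 0.178 (edgeR).

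**Figure D3:**
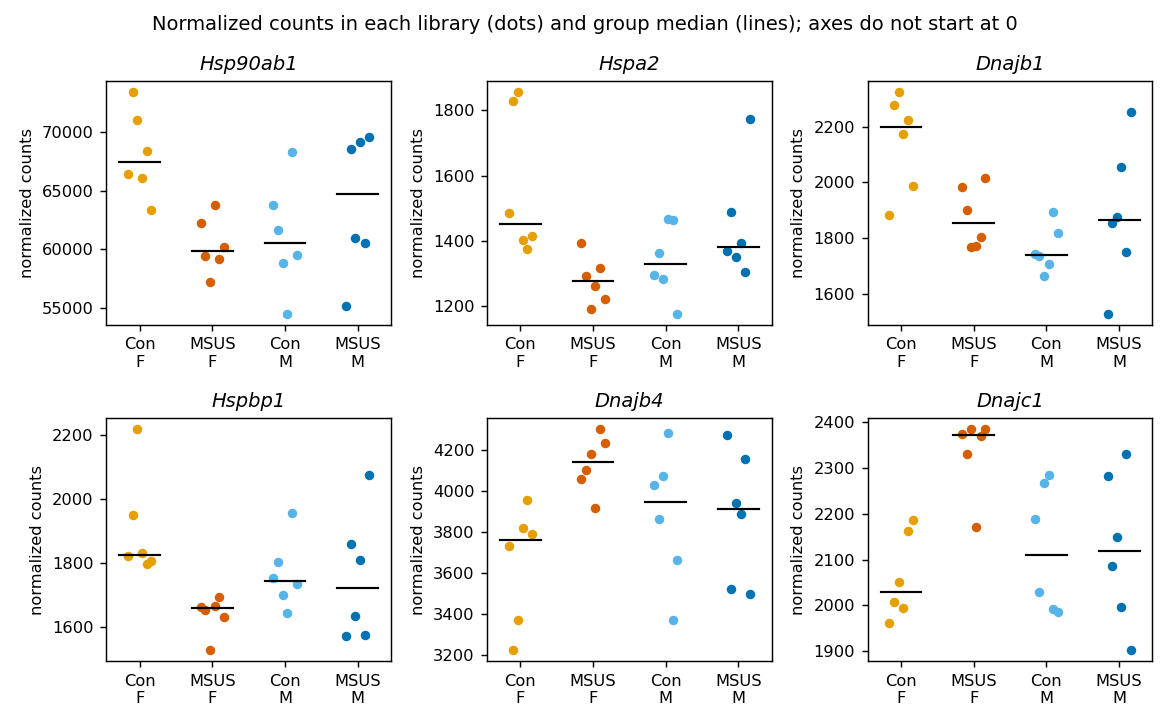
Normalized counts in each of the 24 libraries (dots) with group medians (lines) for 6 called members, in females (F) and males (M); the axes do not start at 0. Hsp90ab1, Hspa2, Dnajb1 and Hspbp1 are lower and Dnajb4 and Dnajc1 higher in MSUS than in Con females, and in males the groups overlap for each of them.

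The promoter letters are given by female call as a description, with no test. Of the 10 members called lower that had a window, 0 held a heat shock element of 2 units, nor did any hold the ER stress element, whereas Dnajb4, of the 2 called higher, held the heat shock element printed above. The 42 members with a window that were tested and not called included 14 with a heat shock element and all 3 with an ER stress element. Hsp90ab1, Hspa9, Dnajc5 and Dnajc30 had no window in the table used.

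Co-chaperones outside the symbol rule were read from a separate list of 41 genes of nucleotide exchange factors, HSP90 partners, the cytosolic CCT chaperonin and heat shock factors. Of its 40 genes tested in females, 10 were called lower and 0 higher, with a median log2 fold change of -0.05. The share called, 25.0%, was near the 25.1% of all genes, of which 11.9% were called lower. The called gene of smallest p was Bag1, a nucleotide exchange factor of HSP70, with 3560.3 to 4093 normalized counts among Con females (median 3589) and 2867 to 3249.8 among MSUS females (median 3057). Its groups did not overlap, and the fall was -0.27 ± 0.04 on the log2 scale (adjusted p 0.00309, edgeR). The heat shock factors themselves had log2 fold changes of 0.01 ± 0.05 (Hsf1) and 0.08 ± 0.05 (Hsf2) and were not called. Of 17 ER stress genes, 3 were called lower and 0 higher. The share called, 17.6%, was below that of all genes called and stands beside the 11.9% called lower. The called gene of smallest p there was Atf4, a transcription factor of the integrated stress response (-0.34 ± 0.11, adjusted p 0.0452, edgeR), and the ER chaperone Hyou1 stood at -0.01 ± 0.04.

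Markers of other cells and the RNA composition moved with the female comparison. Of 10 cortical excitatory neuron markers, 2 were called lower in MSUS females, and 8 had a fitted log2 fold change below 0. The median of the 10 was -1.75 (from -2.21 to 0.08), a far larger shift than that of any called member. Their summed normalized counts lay between 33293 and 109165 in Con and between 22620.4 and 53830.2 in MSUS females. Of 8 oligodendrocyte markers, 6 were called lower (75.0%), with a median log2 fold change of -0.25. Their sums lay between 220079.6 and 333287 in Con and between 201065 and 246262 in MSUS females. Of 8 astrocyte markers, 2 were called lower (25.0%). Of the 10 striatal projection neuron markers 0 were called, as were 0 of 8 microglial and 0 of 8 endothelial markers, and no marker was at 0. With the cortical marker score, the mean log2 CPM (counts scaled to library size) of the cortical markers, as a covariate, 4 members were called (6.15%, beside 7.82% of all genes), Dnajc1 higher and Dnajb12, Dnajc14 and Dnajc30 lower. With the unassigned share as a covariate, edgeR called 0 members and 0 of all 20571 genes, and 1 member had an unadjusted p under 0.05. The same counts held with the spliced share, the splice events per uniquely mapped pair in the study's library statistics. The median log2 fold change of the members, -0.054 without a covariate, was -0.003 with the unassigned share (all genes -0.008). It was -0.036 with the spliced share (all genes -0.007) and -0.039 with the cortical marker score (all genes -0.004). Since the unassigned share did not overlap between the female groups, a fit with it cannot separate the share from the group. When Con female 3, in which the summed striatal markers were also lowest of the Con females, and MSUS female 1 were both left out, a choice made after the values were seen, 20 members were called (30.8%, beside 26.6% of all genes), 2 higher and 18 lower (13.3% of all genes were called in each direction). These then included Hspa1a (-0.50, adjusted p 0.0229), Hspa1b (-0.62, adjusted p 0.0653), Hspb3 (-1.42, adjusted p 0.0404), Hspa12a (-0.18, adjusted p 0.00965) and Hsp90aa1 (-0.15, adjusted p 0.0463) by edgeR.

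Among the genes that varied most from animal to animal were the stress-inducible Hspa1a and Hspa1b and the small heat shock gene Hspb3, best known from muscle. Among females, Hspa1a ran from 111 to 273 normalized counts for Con (median 142) and from 75.5 to 189 for MSUS (median 101), and among males from 74.6 to 219 for Con (median 87.3) and from 93.2 to 223 for MSUS (median 133). Hspa1b ranged from 46.9 normalized counts in a Con male to 399 in a Con female, and since the genes are nearly identical and only uniquely mapped pairs were counted, the level of either is uncertain. Hspb3, named after its values were seen, ran from 34.1 to 166 normalized counts among Con females (median 40.01) and from 5.01 to 61.1 for MSUS (median 15.9), and among males from 2.87 to 85.0 for Con (median 23.2) and from 16.5 to 171 for MSUS (median 45.1). In all 4 groups the highest value of Hspb3, Hspa1a and Hspa1b was in the library of highest cortical marker sum. The comparison of MSUS with Con females gave log2 fold changes of -0.51 ± 0.25 for Hspa1a, -0.62 ± 0.41 for Hspa1b and -1.41 ± 0.60 for Hspb3, none of which passed (adjusted p 0.176, 0.309 and 0.129, edgeR).

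Over the 24 libraries, the members were set against the cortical marker score and against the unassigned share, 134 relations in all. With the score, 30 of 67 members had a Pearson correlation with an adjusted permutation p under 0.05, 22 positive and 8 negative. With the unassigned share 32 did, 3 positive and 29 negative. The correlations were run on the members alone, so no share over all genes stands beside these counts. The permutations pooled the 4 groups. Dnajc6 had the highest correlation with the score, with r = 0.884 and Spearman's rho = 0.921 (permutation p = 1e-05 for each, the smallest the resamples can give, adjusted p 0.000149 and 0.000134). Without the 2 libraries farthest from the median score r was 0.884, and within the libraries numbered 1 to 12 and 13 to 24 it was 0.913 and 0.852. Hspb3 had r = 0.814 and rho = 0.853 (permutation p = 1e-05 for each, adjusted p 0.000149 and 0.000134), r = 0.766 without the 2 farthest libraries, and 0.896 and 0.736 within the sets. Dnajb4 went against the score, with r = -0.687 and rho = -0.642 (permutation p = 0.00024 and 0.00096, adjusted p 0.00129 and 0.00415), r = -0.623 without the 2 farthest libraries, and -0.804 and -0.633 within the sets. Hsp90ab1 went against the unassigned share, with r = -0.818 and rho = -0.795 (permutation p = 1e-05 for each, adjusted p 0.000149 and 0.000134), r = -0.766 without the 2 farthest libraries, and -0.872 and -0.798 within the sets. With group means taken out, r with the score was 0.855 for Dnajc6, 0.800 for Hspb3 and -0.578 for Dnajb4. For Hsp90ab1 with the unassigned share it was -0.716. Every member called lower in females had a negative r with the unassigned share, from -0.822 (Dnajc5) to -0.580 (Hspa2). The 2 called higher had positive ones, 0.768 for Dnajc1, the highest of any member, and 0.696 for Dnajb4. Each had an adjusted permutation p under 0.05. These correlations included the libraries of the female comparison, whose groups did not overlap in the share. With group means taken out, r was 0.723 for Dnajc1 and 0.545 for Dnajb4. The part of cell composition or RNA composition in the female differences was not tested beyond the covariates above.

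**Figure D4:**
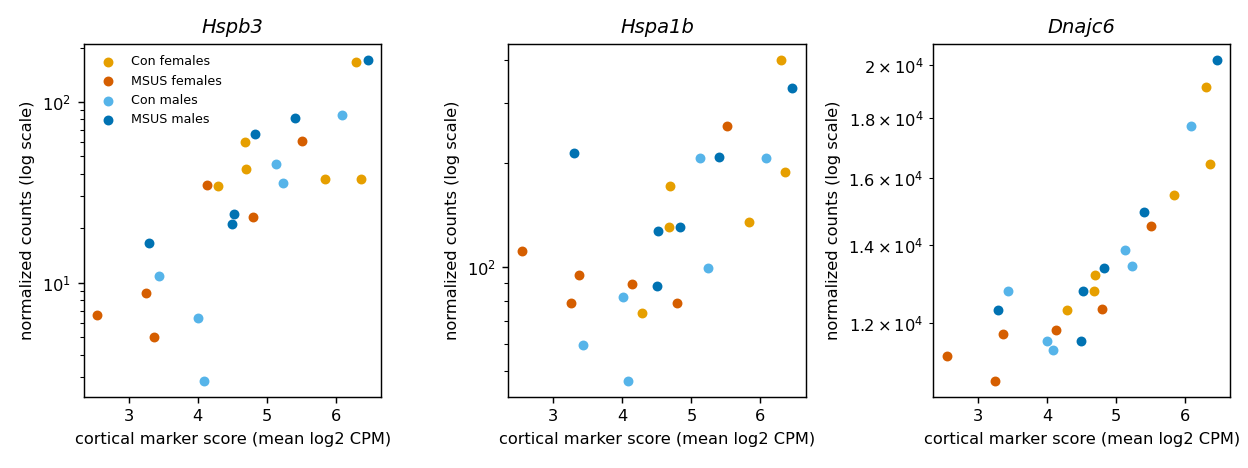
Normalized counts (log scale) of Hspb3, Hspa1b and Dnajc6 against the cortical marker score (mean log2 CPM of 10 cortical excitatory neuron markers), with 1 dot per library and colours for the 4 groups. Dnajc6 rises with the score across groups (r = 0.884), and the highest values of Hspb3 are those of MSUS male 6 and Con female 3.

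In males, no member passed the test for MSUS. EdgeR called 0 of 66 members and 0 of 20691 genes (0.0%), DESeq2 also called 0 members, and 0 members had an unadjusted p under 0.05, against 0.923% of all genes. The member of smallest p was Hspg2, with 1360.0 to 1595 normalized counts among Con males (median 1459.6) and 1222 to 1471 among MSUS males (median 1389.8). These ranges overlapped, and the log2 fold change was -0.12 ± 0.06 (adjusted p 1.0, edgeR). The 14 members called lower in females had fitted log2 fold changes in males from -0.07 (Dnajc30) to 0.11 (Hspa2), 11 of them above 0 and 3 below, and Dnajb4 and Dnajc1, called higher in females, both stood at -0.00. Fitted values were below 0 for 15 of the 66 members (22.7%), against 48.3% of all genes, and the median log2 fold change was 0.03, beside 0.00 over all genes. MSUS male 1, the library with the highest unassigned share, had the lowest of the 6 MSUS male values in 36 of the 66 members, against 24.2% of all genes tested, and MSUS male 6 the highest in 32, against 28.3%.

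**Figure D5:**
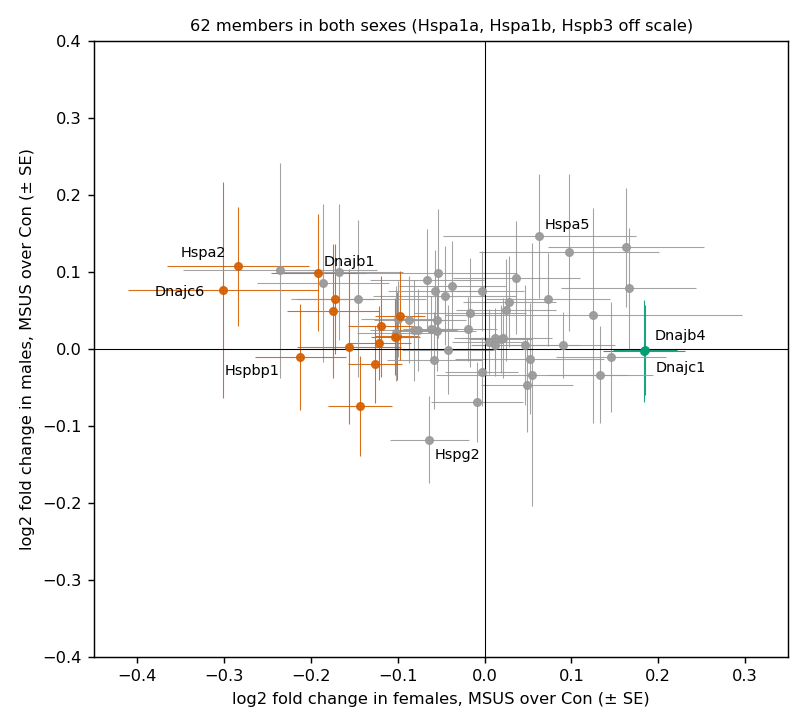
Log2 fold change, MSUS over Con, in females (horizontal axis) and males (vertical axis) with SE bars, for 62 of the 65 members tested in both sexes; Hspa1a, Hspa1b and Hspb3 lie off the scale. Orange and green mark members called lower and higher in females by edgeR, and Hspa2, at 0.11 in males and -0.28 in females, is the member of smallest interaction p.

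Whether the effect of MSUS differed between the sexes was tested by the group-by-sex interaction over the 24 libraries. EdgeR called 0 of 67 members and 0 of 21500 genes (0.0%), and 15 members had an unadjusted p under 0.05 (22.4%), near the 18.7% of all genes. DESeq2 called 1 member (1.49%), Hspa2, beside 467 of all genes (2.17%). The smallest p was that of Hspa2, whose effect in females was lower than that in males by a log2 difference of -0.40 ± 0.12 (adjusted p 0.200, edgeR), followed by Dnajb1 (-0.30 ± 0.10, adjusted p 0.200, edgeR). The edgeR count depended on MSUS male 1. Without it edgeR called 12 members, 17.9% of those tested beside 14.0% of all genes. The effect in females was higher for 1 of them (Dnajc1) and lower for 11, among them Hspa2 (-0.41 ± 0.12, adjusted p 0.0530), Dnajb1 (-0.34 ± 0.08, adjusted p 0.0279), Hsp90ab1 (-0.28 ± 0.08, adjusted p 0.0448) and Hspa8 (-0.32 ± 0.11, adjusted p 0.0787).

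Between the sexes, 2 members differed in Con animals, both higher in females. EdgeR called these 2 of 67 members (2.99%) and 2.64% of 20641 genes, so the share was near the background, beside 0.799% of genes called higher and 17.8% at an unadjusted p under 0.05 (9 members). The comparison shares the Con animals with those of MSUS above. Dnajb1 ranged from 1883 to 2325 normalized counts among Con females (median 2199.8) and from 1662 to 1893 among Con males (median 1739.6). The ranges barely overlapped, and the log2 fold change, females over males, was 0.29 ± 0.05 (adjusted p 0.0544, edgeR). Dnajb5 ranged from 5535 to 7468 normalized counts among Con females (median 6432) and from 4618 to 5658 among Con males (median 5060.3), with a log2 fold change of 0.33 ± 0.07 (adjusted p 0.0732, edgeR). The calls depended on single animals, since leaving out any of Con females 4 and 5 and Con males 1, 3 and 4 left 0 called members, and leaving out Con female 1, Con female 2 or Con male 6 left 1. Of 11 immediate early genes, which neurons switch on within minutes of activity, 9 were called higher in Con females. Their sums lay between 25474 and 41805 normalized counts in Con females and between 14988 and 23866 in Con males. The part of these genes in the differences was not tested. All 10 cortical excitatory neuron markers were fitted higher in Con females (median log2 fold change 0.89), and 0 were called. The unassigned share ran from 31.0% to 34.8% in Con females and from 34.7% to 40.6% in Con males. The part of the cortical markers and of this share was not tested beyond fits with each as a covariate.

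In MSUS animals, edgeR called 0 of 65 members between the sexes, against 0.135% of 20714 genes, DESeq2 also called 0, and 3 members had an unadjusted p under 0.05 (4.62%, background 7.29%). The member of smallest p was again Dnajc1, with 2172 to 2385 normalized counts among MSUS females (median 2371) and 1902 to 2331 among MSUS males (median 2118). Its groups overlapped, and the log2 fold change, females over males, was 0.13 ± 0.05 (adjusted p 0.628, edgeR). Dnajb1, called in Con animals, stood at -0.01 in MSUS animals, and Dnajb5 at 0.17, and neither change between the groups passed the interaction test.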

How the data were processed

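NAc total RNA of 24 mice was sequenced as 1 rRNA-depleted, stranded library per animal. The authors trimmed adapters, aligned pairs with STAR (2.6.1b per the submitters' processing notes) to mm10 with GENCODE annotation and deposited a table of raw counts for each library, in which a uniquely mapped pair adds to 1 gene. The sense-strand counts were used here, and rows naming no gene were left out of library sizes. Library totals ran from 39923666 to 70575745.

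Groups came from the labels. Each comparison was fitted on its own libraries (the interaction on all 24) with edgeR 4.0.16 in R 4.3.3: filterByExpr with a minimum count of 10, TMM, the robust quasi-likelihood F test, and Benjamini-Hochberg adjustment over all genes with a threshold of 0.10. SEs are the log2 fold change divided by the square root of F. Normalized counts are counts divided by DESeq2 1.42.0 size factors over the 24 libraries, and levels between genes are per kb of merged exons. Scripts were tested on simulated data. Correlations used 100000 permutations (two-sided), computed with numpy 2.4.6, with ranks from scipy 1.17.1. Sequences are from RefSeq (GRCm38.p6).

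Alternatives were DESeq2, its size factors, other filters, unstranded counts, a replicate block, covariates, a stricter threshold, a fit of all libraries and leaving out each library. Replicates are separate animals. The study assigned the stress by litter, and litter was not among the labels used. Littermates may therefore be among the animals of a group, while the tests treat animals as independent. The labels give an estrous stage to males and none to part of the females, so stage was not used. The members, lists and tests were chosen with earlier results of these data known. Genes named with values were a list of 28 main chaperones, the 6 largest called rises and 6 largest called falls in females, the smallest p of each other comparison, and any call in a comparison with 5 or fewer; 6 further called members and Hspb3 were named after their values were seen.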

Additional observations from a re-analysis of the deposited data

Results flagged for a closer look

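In 160 groups of 6 values of named members, the highest or lowest value stood apart from the rest of its group by Dixon's test in 16. Chance gives about 1 in 20 groups only where the groups are independent. These groups reused the same 24 libraries, and some members were named after their values were seen, so the 16 cannot be set against that rate. Con female 3 accounted for 5 of these and MSUS female 1 for 3, and these were the libraries of the highest cortical marker sum in their groups. In normalized counts, Hspa12a was 14254 in Con female 3 (next 9785) and 10655 in MSUS female 1 (next 8864). Hspa1a was 273 in Con female 3 (next 147) and 189 in MSUS female 1 (next 110.2), and Hspa1b was 399 (next 189) and 256 (next 111) in the same libraries. Con female 3 also had the highest Hspb3, at 166 (next 59.8), and the highest Hspbp1, at 2220.2 (next 1953).

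The other 8 values were spread over 8 libraries. Low values were Dnaja3 in Con male 3 at 2639 normalized counts, Dnajb2 in Con female 6 at 3031, Dnajc1 in MSUS female 4 at 2172 and Hspbp1 in MSUS female 3 at 1529. High values were Dnajb2 in MSUS male 4 at 3807, Dnajc10 in MSUS male 6 at 4422, Dnajc4 in Con male 6 at 379 and Hspe1 in MSUS female 5 at 2281.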

How the results depend on the processing

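Of the 16 members called in MSUS females, 14 passed the stricter 0.05 (21.5% of those tested, beside 15.2% of all genes). DESeq2 called 19 (29.2%, beside 28.1%), and unstranded counts gave 23 (34.3%, beside 29.0%). The count moved most with covariates. It was 0 with the unassigned share and 0 with the spliced share (0.0% of all genes in each), and 4 with the cortical marker score (6.15%, beside 7.82%). It was 10 in the fit of all 24 libraries and 8 with offsets for GC content and length of transcripts, a setting chosen after seeing the data. Leaving out each library gave from 12 without MSUS female 2 (18.2%, beside 16.2%) to 22 without MSUS female 1 (33.8%, beside 27.7%). Dnajb12 changed sign, to 0.0186 (adjusted p 0.976, edgeR), with the spliced share as a covariate. The cause of these changes was not tested. In Con animals, the 2 members called between the sexes became 0 at the stricter threshold, with each of the 3 covariates named above, in the fit of all libraries and with the GC and length offsets. In each of these settings at most 0.288% of all genes were called. Unstranded counts gave 4 (5.97%, beside 5.78%), and leaving out each library gave 0 to 2. The interaction gave 1 with DESeq2 (1.49%, beside 2.17% of all genes). It gave 0 to 12 when each library was left out, the 12 (17.9%, beside 14.0%) without MSUS male 1. Males and MSUS animals gave 0 members under each alternative run. GC content from a genome was not run.

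Replicate numbers did not pair the animals: correlations of deviations lay between -0.393 and 0.425 over the 4 comparisons. With the replicate block, 11 members were called in MSUS females (16.9%, beside 18.5% of all genes), 0 between the sexes in Con animals (beside 0.0581%) and 0 in the other comparisons.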
